A study of Mus musculus with 130 samples.

Results

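C1ra, C1rb, C1s1 and C1s2 are the mouse genes for the 2 serine proteases of the first complement component, with 2 paralogs for C1r and 2 for C1s. The 4 genes were chosen by name, after their uneven levels between strains had been seen, and each symbol was matched to its Ensembl identifier: all 4 were found among the 35274 genes of the diet table and the 35711 genes of the strain table. The levels of the 4 genes over strains, the order of the strains and all relations of C1rb and C1s2 are therefore a description, with no test. Of the 4, only C1ra and C1s1 are tested over strains, on their relations to each other and to partner genes and on the difference between 2 families of strains. Liver mRNA had been sequenced from male mice in a study of dietary iron overload. In the diet study, 15 C57BL/6J livers came from 5 groups of 3 mice: chow, 50 ppm iron, 500 ppm iron, 2% carbonyl iron (20000 ppm), and 2% carbonyl iron in a diet whose fibre source was cellulose. In the strain panel, 115 livers came from 114 strains kept on chow for 4 weeks and on 2% carbonyl iron for 6 weeks, with 1 mouse per strain except for 129X1/SvJ, which had 2. The panel held 56 BXD strains (recombinant inbreds of C57BL/6J and DBA/2J), 20 AXB/BXA strains (of A/J and C57BL/6J), 4 BXH strains (of C57BL/6J and C3H/HeJ), 3 CXB strains (of BALB/cBy and C57BL/6By) and 31 other inbred strains. The labels give no ages and no genotypes beyond the strain names, and every panel mouse was iron-loaded, so the strain panel has no unloaded control.

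C1r and C1s are made mainly by hepatocytes and circulate bound to C1q as the C1 complex. When C1q binds antibody or another target, C1r activates itself and then cleaves C1s, and C1s cleaves C4 and C2 to build the classical pathway C3 convertase. C1 inhibitor, the product of Serping1, blocks both proteases.

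The 4 genes lie within 123681 bases of chromosome 6 (GRCm38, the assembly also called mm10; GENCODE M21). C1ra (ENSMUSG00000055172, plus strand) spans chr6:124512405-124523443 and C1s1 (ENSMUSG00000038521, minus strand) spans chr6:124530345-124542359. C1rb (ENSMUSG00000098470, plus strand) spans chr6:124570294-124581171 and C1s2 (ENSMUSG00000079343, minus strand) spans chr6:124624625-124636085. Each C1r gene is thus followed by a C1s gene on the opposite strand. The coding sequences of C1ra and C1rb were identical at 98.0% of 2118 aligned bases, with a longest identical run of 757 bases. Those of C1s1 and C1s2 were identical at 95.6% of 2064 aligned bases, with a longest identical run of 229 bases, whereas C1ra and C1s1 shared 66.6% of aligned bases. Reads can be told apart between paralogs only at the differing bases, which the most divergent coding stretches of 90 bases show. The C1r stretch lies in exon 11, at chr6:124522647-124522736 for C1ra and chr6:124580693-124580782 for C1rb, both on the plus strand. The C1s stretch lies at chr6:124531486-124531575 in exon 12 of C1s1 and at chr6:124625708-124625797 in exon 11 of C1s2, both on the minus strand. The sequences are those of the reference, C57BL/6J, 5′ to 3′ in the sense of the gene, with capitals at the 13 bases that differ between the C1r genes and the 20 that differ between the C1s genes:
C1ra: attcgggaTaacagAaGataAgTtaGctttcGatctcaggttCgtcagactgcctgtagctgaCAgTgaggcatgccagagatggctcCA
C1rb: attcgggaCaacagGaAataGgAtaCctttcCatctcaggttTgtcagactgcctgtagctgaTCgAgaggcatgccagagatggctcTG
C1s1: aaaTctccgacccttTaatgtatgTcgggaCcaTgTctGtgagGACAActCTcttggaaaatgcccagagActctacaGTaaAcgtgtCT
C1s2: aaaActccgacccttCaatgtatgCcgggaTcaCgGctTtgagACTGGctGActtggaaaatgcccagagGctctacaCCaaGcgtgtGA

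Pseudoalignment assigns reads through short exact words, and over whole transcripts 56.9% of the 31-base words of C1ra also occurred in C1rb, and 70.0% of those of C1rb occurred in C1ra. For the C1s genes, 33.5% of the words of C1s1 occurred in C1s2 and 40.4% of those of C1s2 in C1s1. No word was shared between a C1r and a C1s gene. Of other annotated transcripts, those of the pseudogene Gm18840, which lies between C1s1 and C1rb, shared 39.9% of their words with C1ra and 33.8% with C1rb. The antisense transcript Gm16567 overlaps C1s1, 15.5% of whose words match it, and it has no row in the strain table; the strand setting of the authors' counting is not given in the sources used here. The split of reads between paralogs is thus an estimate, and its error in strains whose sequence differs from the reference was not tested.

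Diet libraries held 10.4 to 20.4 M counts (median 11.7 M) and panel libraries 9.41 to 20.6 M counts (median 12.3 M). One pair of libraries stood apart: the counts of replicate 2 of the 500 ppm group and of BXD19/TyJ, the deepest library of each table, differed by less than sampling noise. This was measured over 9690 genes with at least 200 counts summed over the 2 libraries. The median absolute difference was 0.165 in units of its counting error, where counting error alone gives 0.675. The next closest of 8385 library pairs gave 1.11. The labels do not say which of the 2 samples it came from, and values that rest on either are given with and without it where they concern the 500 ppm group, or the spread, correlations and nearest genes of C1rb over BXD strains. Hepatocyte markers (Alb, Apoa1, Ttr, Apob, F2, Ahsg) were detected in every diet group, none of the 6 at 0. Fewer cells of a type and less RNA per cell cannot be told apart in these whole-liver samples.

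In C57BL/6J mice the C1r and C1s transcripts came almost wholly from C1ra and C1s1. The level of C1ra, in read counts scaled to library size (CPM), was 401, 322.1 and 310 in the 3 mice on 50 ppm iron, 321, 295 and 311 on 500 ppm, and 333, 355 and 352 on chow. It was 345.1, 363.7 and 338.2 CPM on 2% iron and 279, 285 and 319 CPM on 2% iron with cellulose. The mice on 500 ppm iron and on 2% iron with cellulose all lay below those on chow and on 2% iron, and the 50 ppm group overlapped the others. The level of C1s1 was 543, 486 and 504 CPM on 50 ppm iron, 471, 428 and 453 on 500 ppm, and 421, 492 and 465 on chow. It was 604, 588.5 and 611 CPM on 2% iron and 656, 650 and 559 CPM on 2% iron with cellulose. Every mouse on either 2% diet was above every mouse on the other 3 diets. Both separations, of C1ra and of C1s1, were noticed after seeing the values and are a description. The share of all genes that separate the diets in the same way was not counted.

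**Figure D1:**
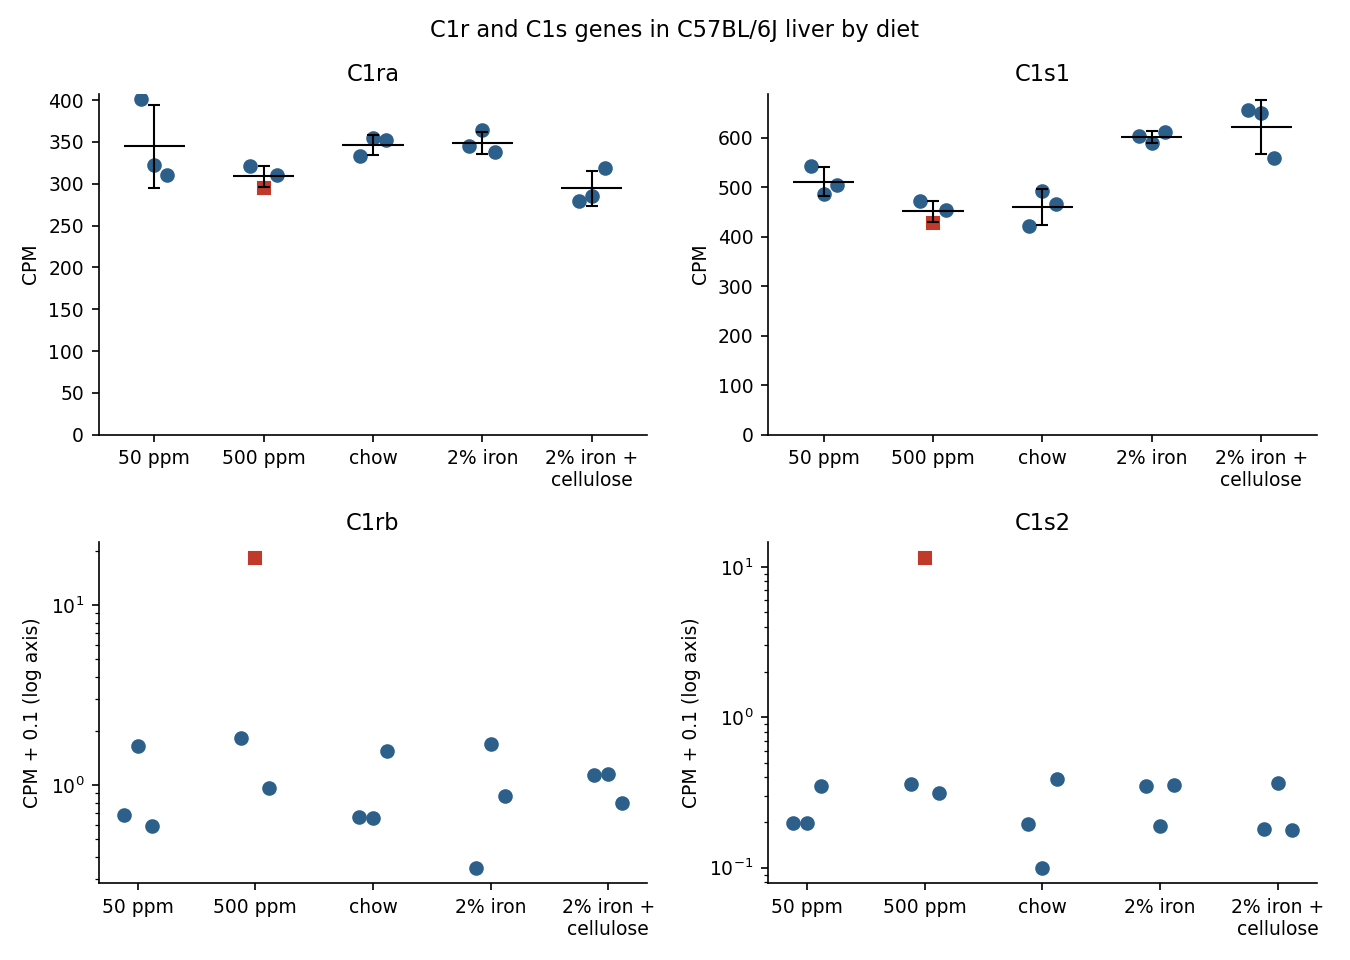
Level of each gene in CPM (C1rb and C1s2 as CPM + 0.1 on a log axis) in the 15 C57BL/6J livers by diet; points are mice, lines and bars the mean and SD of 3 mice, and the red square is replicate 2 of the 500 ppm group. C1s1 was 588.5 to 611 CPM on 2% iron against 421 to 492 CPM on chow, and the red square is the 1 library with C1rb above 1.72 CPM and C1s2 above 0.291 CPM.

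C1s1, the protease that cleaves C4 and C2, rose on 2% iron against chow by 0.39 on the log2 scale (SE 0.092, adjusted p = 0.00842, edgeR's quasi-likelihood test with Benjamini-Hochberg adjustment over 13560 genes), from 459 ± 36.2 to 601 ± 11.5 CPM (SD, n = 3). It was the only call over the 5 contrasts among the 3 of the 4 genes that were tested, in a contrast that called 22.8% of all genes tested. C1s2 did not pass the filter on low counts and was not tested in these fits. Against 50 ppm iron, the same 2% mice gave a C1s1 change of 0.23 (SE 0.092, adjusted p = 0.103, 15.7% of genes called), which did not pass. These contrasts share the 2% samples. C1s1 gave -0.18 for 500 ppm against 50 ppm (adjusted p = 1), -0.15 for chow against 50 ppm (0.626) and 0.05 for 2% iron with cellulose against 2% iron (0.868). In the chow contrast the call held without any 1 mouse, with adjusted p from 0.00885 to 0.0415. The first of these is the fit without replicate 2 of the 500 ppm group, in which 24% of genes were called. On the deposited TPM scale the change was larger, 0.54 by limma on log2(TPM + 1) (adjusted p = 0.00282).

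C1ra, the protease that activates C1s, gave 0.01 (SE 0.099, adjusted p = 0.957) for 2% iron against chow and 0.02 (adjusted p = 0.923) against 50 ppm. Its lowest value, for cellulose against 2% iron, was -0.25 (adjusted p = 0.322, 0.0811% of genes called). C1ra gave -0.16 for 500 ppm against 50 ppm and 0.01 for chow against 50 ppm, neither past the test. With the library that stands apart removed, 500 ppm against 50 ppm gave -0.13 for C1ra and -0.14 for C1s1. Whether the 2 main paralogs differed in their response was not tested.

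Markers of other liver cells moved in the same contrast. All 7 of 7 Kupffer cell markers (Clec4f, Adgre1, Cd5l, Timd4, Marco, Csf1r, Cd68) rose on 2% iron against chow, with a summed level of 246 to 285 TPM against 62.1 to 83.8 TPM. Of 9 stellate cell and fibroblast markers 6 rose, from a summed 70.9 to 84.8 TPM on chow to 117 to 139 TPM, and none of the markers of either list was at 0. Their part in the C1s1 change was not tested. On 50 ppm iron, against which C1s1 was not called, the stellate sum was 90.1 to 136 TPM and the Kupffer sum 56.3 to 108 TPM.

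The other complement genes were read from lists fixed with earlier results in view. Over all genes tested, 11.9% rose and 10.9% fell on 2% iron against chow, with a median change of 0.0064. Of 14 classical and lectin pathway genes tested, 8 rose and 2 fell on 2% iron against chow, with a median change of 0.35. The largest rises were in C1qb (1.66), C1qa (1.53) and C1qc (1.48), which encode the 3 chains of C1q, and Fcna (1.22), a ficolin, all with adjusted p below the 0.05 threshold. C4b, a substrate of C1s, rose by 0.37 (adjusted p = 0.0346), whereas C2, the other substrate, gave -0.26 (0.231) and Serping1 gave 0.16 (0.338). The 2 that fell were Mbl1 (-0.65), a mannose-binding lectin, and Masp2 (-0.32), the C1s-like protease of the lectin pathway. Of 6 complement receptor genes tested 5 rose, led by Itgax (2.28) and C3ar1 (1.98). Of 7 terminal pathway genes 5 fell, led by C6 (-2.10) and C9 (-1.69), subunits of the membrane attack complex, and none rose. Of 14 alternative pathway genes and regulators 1 rose, Cfp (1.37, properdin), and 4 fell, among them Cd59a (-0.71) and Clu (-0.40), the gene of clusterin. A rise in 1 of these 14 is close to the share over all genes. Against 50 ppm iron the counts of genes up and down were 7 and 2, 4 and 0, 0 and 5, and 2 and 2 for these lists in the same order, where 8.52% of all genes rose and 7.17% fell with a median change of 0.0092. The C1q and receptor genes are also expressed by the Kupffer cells whose markers rose.

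C1rb and C1s2 were close to absent in all C57BL/6J diet libraries but 1. Outside replicate 2 of the 500 ppm group, C1rb was 0.249 to 1.72 CPM (3 to 20.4 estimated counts) and C1s2 was 0 to 0.291 CPM (0 to 4.21 counts). In replicate 2 of the 500 ppm group, C1rb was 18.3 CPM and C1s2 was 11.4 CPM. There C1rb made up 5.82% of C1r counts (95% Wilson interval 5.28 to 6.42) and C1s2 made up 2.60% of C1s counts (2.29 to 2.95), against at most 0.537% and 0.0657% in the other 14 libraries. These intervals, and the limits given for counts of 0, cover counting error only. For 500 ppm against 50 ppm, C1rb gave 3.04 (SE 0.96, unadjusted p = 0.0071, adjusted p = 1) in a contrast with 0% of genes called by edgeR, where 428 genes had an unadjusted p under 0.05 and DESeq2 called 2. The C1rb value was 0.56 once that library was left out. C1s2 did not pass the filter on low counts in the diet table. With no filter it gave 4.69 (unadjusted p = 0.000917, adjusted p = 1), again with replicate 2 as the only 500 ppm library above 0.291 CPM.

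Over the panel, C1rb and C1s2 each fell into 2 separate groups of strains, and these were the same strains. On the scale of log2 CPM, the widest gap that left at least 3 strains on each side was 2.28 for C1rb and 3.05 for C1s2. Below it lay 52 strains and above it 62, with 0 strains placed differently by the 2 genes. Below the gap, C1rb ran from 0 through a median of 0.339 to 1.04 TPM, and C1s2 from 0 through 0.0867 to 0.247 TPM. Above the gap, C1rb ran from 5.24 through 16.6 to 184 TPM, and C1s2 from 2.23 through 11.3 to 15.97 TPM. At the edges of the C1rb gap were BXD14/TyJ (1.04 TPM) and BXH2/TyJ (5.24 TPM), and at those of the C1s2 gap I/LnJ (0.247 TPM) and CBA/J (2.23 TPM). Libraries below the gap held 0 to 27.6 estimated counts of C1rb and 0 to 5.62 of C1s2. In NZB/BlNJ, 0 of 1048 C1r counts were C1rb, which allows a share of up to 0.286% by the limit of 3 counts of the total and up to 0.365% by the 95% Wilson interval.

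**Figure D2:**
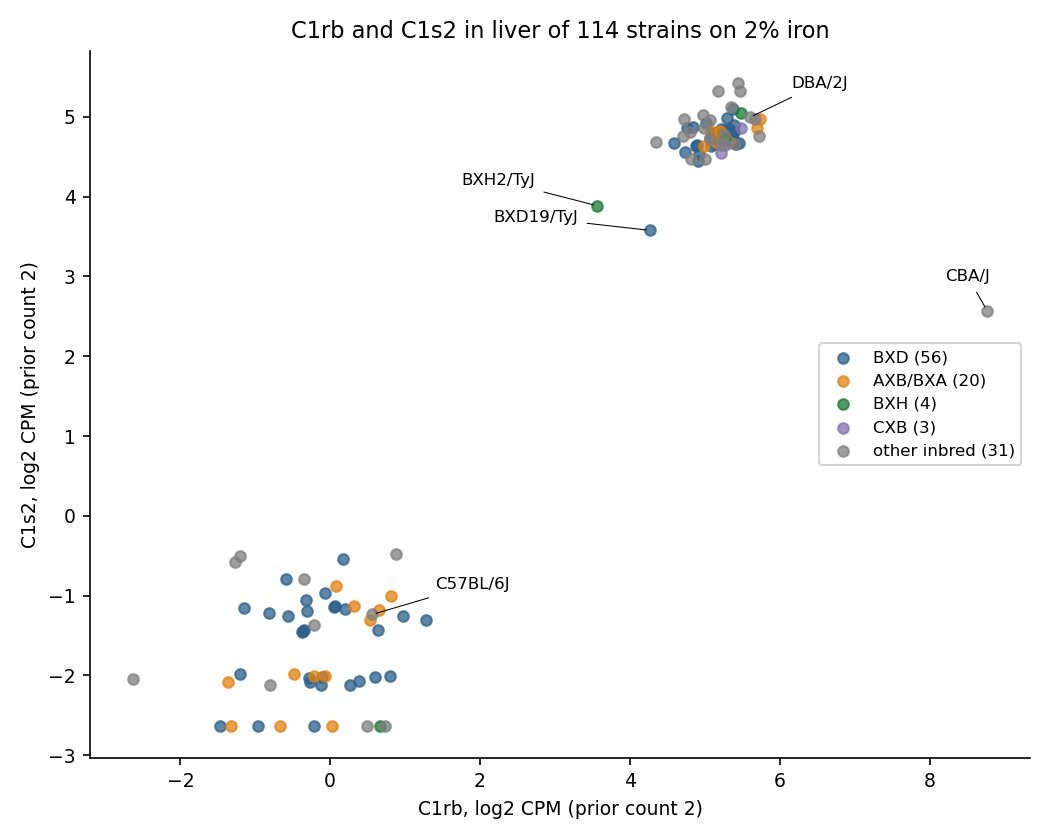
Log2 CPM of C1rb against log2 CPM of C1s2 in 114 strains on 2% iron, 1 point per strain, coloured by family. The 52 strains at lower left and the 62 at upper right are separated on both axes, with C57BL/6J among the former and DBA/2J among the latter, and CBA/J, BXD19/TyJ and BXH2/TyJ lie off the upper cluster.

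The parents of the recombinant families lay on opposite sides. C57BL/6J had 0.558 TPM of C1rb and 0.0968 TPM of C1s2, and DBA/2J had 19.6 and 11.6 TPM. Also above the gap were A/J (14.8 and 10.6 TPM), C3H/HeJ (17.4 and 11.3 TPM) and BALB/cByJ (12.9 and 8.10 TPM). The BXD strains divided into 29 below and 27 above, the AXB/BXA strains into 12 and 8, and the BXH strains into 1 and 3, while all 3 CXB strains lay above. Substrains are counted separately here: BXD48 and BXD48a, and AXB19, AXB19a and AXB19b, all lay below. Within BXD, C1rb was 0.0967 to 1.04 TPM in the lower 29 strains and 7.68 to 20.96 TPM in the upper 27, with no strain at a level between. The lowest of the upper strains was BXD19/TyJ, and the next was at 11.3 TPM. Of the 31 other inbred strains 10 lay below, C57BL/6J, C57L/J, BTBR T<+> tf/J, BUB/BnJ, I/LnJ, KK/HlJ, NZB/BlNJ, PL/J, RIIIS/J and 129X1/SvJ.

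Where both paralogs were expressed, they kept a narrow share of their pair. Above the gap, and leaving aside BXD19/TyJ and CBA/J, C1rb made up 9.66% to 14.8% of C1r TPM and C1s2 made up 4.13% to 6.56% of C1s TPM. The medians over the 62 strains were 12.1% and 5.33%. In DBA/2J the shares were 13.2% and 6.21%, and in A/J, the lowest of these strains for both genes, 9.66% and 4.13%. BXD19/TyJ was below that range for both, at 7.28% and 2.66%. Below the gap the medians were 0.266% and 0.0314%.

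**Figure D3:**
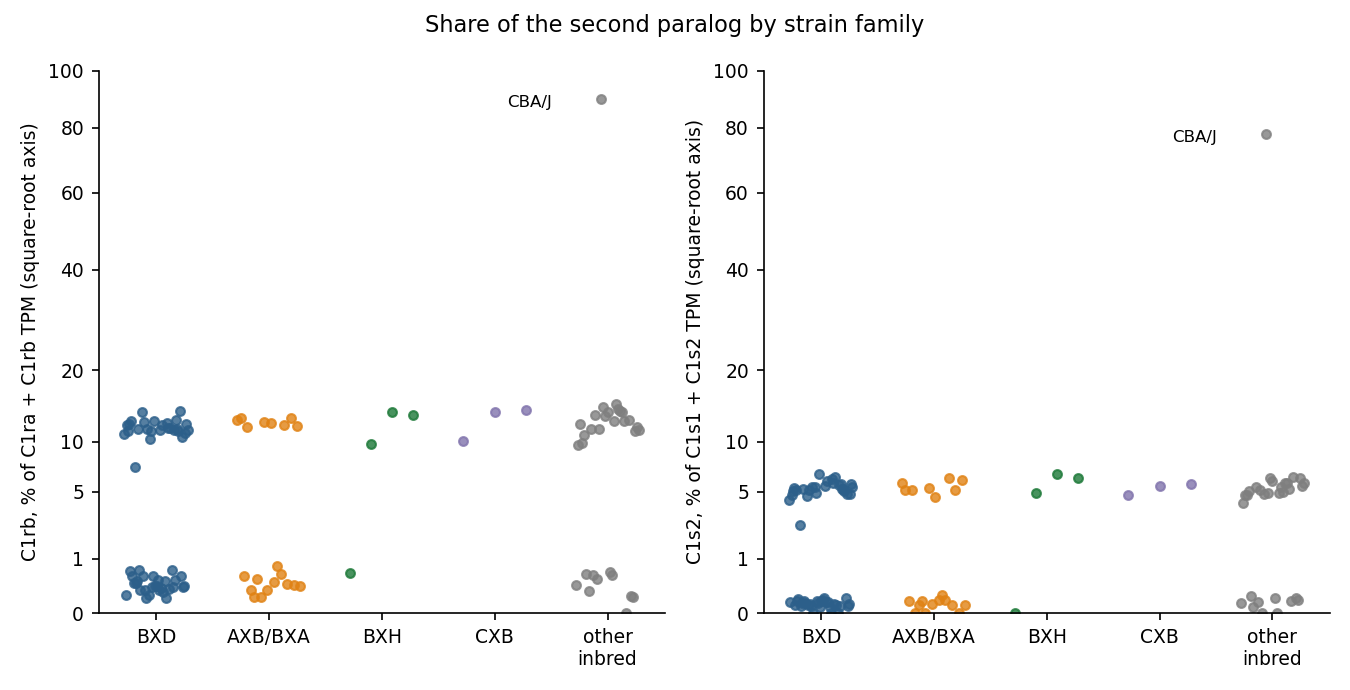
Share of C1rb in the summed TPM of C1ra and C1rb (left) and of C1s2 in that of C1s1 and C1s2 (right) by strain family, on square-root axes, 1 point per strain. The points form a band near 0 and a band around 12.1% (C1rb) and 5.33% (C1s2), with CBA/J at 89.9% and 77.9%.

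CBA/J had the reverse proportions. Its C1ra was 20.6 TPM, the lowest of 114 strains, and its C1rb was 184 TPM, the highest, with AXB12/PgnJ next at 28.5 TPM. Its C1s1 was 0.631 TPM, against 85.0 TPM in the next lowest strain, and its C1s2 was 2.23 TPM. In estimated counts, the library held 663 of C1ra, 4744 of C1rb, 8.51 of C1s1 and 63.5 of C1s2. The summed C1r level of 204 TPM was the second highest of the panel, and the summed C1s level of 2.86 TPM was the lowest, with 90.9 TPM the next. The pseudogene Gm18840 was at 0 CPM in CBA/J and C57BL/6J and at 1.71 CPM in DBA/2J. C4b was 452 CPM in CBA/J, where the panel ran from 401 through a median of 2386 to 4684 CPM. C1qa was 28.4 CPM there, also near the lowest value of 26.9 CPM, with a median of 52.3 CPM. C2 (107 CPM, median 103) and Serping1 (907 CPM, median 774) were nearer the middle. Some complement genes outside the C1 pathway also lay far from their medians in this mouse, in both directions. Others lay near them, such as Vtn (1773 CPM, median 1801) and Masp1 (281 CPM, median 278). Of the former, C3 (6829 CPM, median 9211), Cfp (12.6 CPM, median 27.1) and Vsig4 (17.1 CPM, median 34.3) were low. C9 (493.6 CPM, median 110.1) and C8b (301.8 CPM, median 136.1) were high. A link between the C1r and C1s levels of this mouse and its low C4b and C1qa was not tested. CBA/J was 1 mouse, so these values have no replicate, and whether reads of its C1ra and C1s1 alleles were assigned elsewhere was not tested.

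C1ra and C1s1 varied without a gap of 1 log2 between groups of strains. C1ra had a median of 123 TPM and a highest value of 192 TPM, in AXB12/PgnJ. After CBA/J its lowest values were 30.2 TPM in NZB/BlNJ and 32.97 TPM in BXH2/TyJ, then 64.8 TPM in FVB/NJ. C1s1 had a median of 218 TPM and a highest value of 373 TPM, in BXD14/TyJ, with BUB/BnJ next at 352 TPM. After CBA/J its lowest values were 85.0 TPM in BXH2/TyJ and 96.8 TPM in NZB/BlNJ. NZB/BlNJ and BXH2/TyJ were thus low for both main genes but on opposite sides of the gap for C1rb and C1s2. The 2 mice of 129X1/SvJ differed by 0.09 for C1ra and 0.12 for C1s1 on the log2 scale, so neighbours in the order of strains, mostly closer than that, cannot be told apart. The order also depends on the scale. By CPM, C1ra was highest in BXD14/TyJ (470 CPM, with AXB12/PgnJ at 434 CPM), and RIIIS/J came next after BXD14/TyJ for C1s1 (815 CPM).

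**Figure D4:**
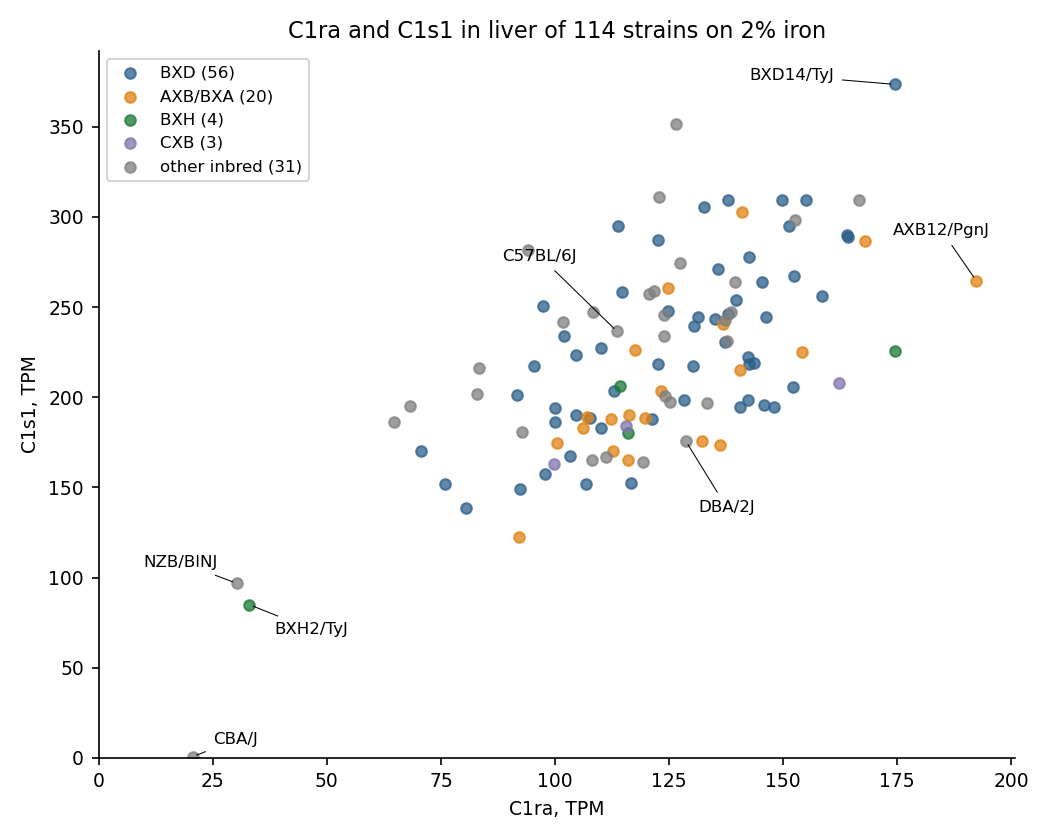
TPM of C1ra against TPM of C1s1 in 114 strains on 2% iron, 1 point per strain, coloured by family. CBA/J (20.6 and 0.631 TPM), NZB/BlNJ (30.2 and 96.8) and BXH2/TyJ (32.97 and 85.0) lie apart at lower left, and BXD14/TyJ has the highest C1s1 at 373 TPM.

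The spread between BXD strains exceeded that between mice on 1 diet for the 3 genes that both tables could measure. The SD of log2 CPM over 56 BXD strains was 0.26 for C1ra and 0.26 for C1s1, and 2.69 for C1rb and 3.21 for C1s2. By that SD, C1s2 ranked 36 and C1rb 72 of 15695 genes, whereas C1s1 and C1ra ranked 10299 and 10302. Without BXD19/TyJ the SD was 2.70 for C1rb (rank 69) and 3.23 for C1s2 (rank 36). Divided by the SD within diet groups without replicate 2 of the 500 ppm group, the BXD SD was 2.31 times as large for C1ra, 2.81 times for C1s1 and 3.68 times for C1rb. The median over 13410 genes was 1.54. With that library kept, the C1rb ratio was 2.27, so 1 library moved it by more than 1.5 times, and the C1s1 and C1ra ratios were 2.81 and 2.37. This ratio sets an SD from the panel table against an SD from the diet table, with median depths of 12.3 M and 11.7 M counts, and is a description.

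Between the 2 large families, neither C1ra nor C1s1 was called, in a contrast that called 11.6% of 13794 genes. BXD against AXB/BXA gave 0.12 for C1s1 (adjusted p = 0.219) and -0.02 for C1ra by edgeR's quasi-likelihood test. The values for C1s2 and C1rb, given as a description, were 0.22 and 0.05. Over all genes tested, 913 of 13794 were higher in BXD. Of 14 classical and lectin pathway genes 1 was higher, Colec11 (0.34, adjusted p = 0.012), a collectin. Of 6 complement receptor genes 1 was higher, Itgam (0.74, adjusted p = 0.0189), a chain of complement receptor 3. Among alternative pathway genes and regulators 0 of 13 were called, and among terminal pathway genes 0 of 7. Whether the complement lists differ from all genes in their share of calls was not tested. In the same contrast 6 of 15 acute phase genes, 1 of 5 erythroid and 1 of 4 cholangiocyte genes were higher, 1 of 12 interferon genes was lower and 0 of 7 Kupffer cell genes were called. Their part in these differences was not tested. Without BXD19/TyJ 11.9% of genes were called, and again neither C1ra nor C1s1.

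Correlations of log2 CPM between the genes and their partners were computed within the groups that the gap defines, 41 relations per set of strains. Those of C1ra and C1s1 carry a two-sided permutation p with Benjamini-Hochberg adjustment over the 41. The smallest p that 100000 permutations can give was 1e-05. C1ra and C1s1 were positively correlated over 114 strains, with Pearson's r of 0.664 (p = 1e-05, adjusted p = 0.000102) and Spearman's rho of 0.403 (adjusted p = 0.000137). Without CBA/J and NZB/BlNJ, r was 0.537. Within BXD, r was 0.519 and rho 0.446 (adjusted p = 0.000512 and 0.00533, n = 56). Leaving out BXD19/TyJ, r was 0.664 over the other 113 strains and 0.516 over the other 55 BXD strains.

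Relations of C1rb and C1s2 were taken within the sides of the gap, which were set after seeing their levels. Above the gap, C1rb and C1ra had rho 0.697 over 62 strains, while r was -0.082. Without CBA/J and BXH2/TyJ, r was 0.798. In the 27 BXD strains above the gap, r was 0.782 and rho 0.833, and without BXD19/TyJ they were 0.898 and 0.838. C1s2 and C1s1 had r 0.805 and rho 0.745 over 62 strains and r 0.694 without CBA/J and BXH2/TyJ. In the 27 BXD strains above the gap that relation had rho 0.679 and r 0.459, and without BXD19/TyJ 0.675 and 0.728, so that 1 library moves its r by more than 1.5 times. All these strains share library preparation and depth range. Each pair of paralogs shares read words, and the part of shared words in these relations was not tested. Below the gap, C1ra and C1rb gave r 0.396 but 0.099 without NZB/BlNJ and BTBR T<+> tf/J, so that relation rests on those strains.

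C1ra was also correlated with partner genes of its pathway on other chromosomes. These were not its closest genes. Over BXD strains, its rho was 0.665 with Serping1 and 0.704 with C2, against -0.803 with Mif and 0.791 with Gcgr, the glucagon receptor. How many of all genes reach values of this size was not counted, so no relation particular to the pathway is shown. With Serping1, the inhibitor, r was 0.530 and rho 0.602 over 114 strains (adjusted p = 0.000102 and 8.2e-05), and r was 0.645 within BXD (0.643 without BXD19/TyJ). With C2, a substrate of C1s, r was 0.590 and rho 0.626 (the same adjusted p-values), and r was 0.657 within BXD (0.659 without BXD19/TyJ). C1s1 with Serping1 had r 0.092 (adjusted p = 0.401) and rho 0.315 (adjusted p = 0.0032), and r 0.389 without the 2 strains farthest from its median. C1s1 with C2 had r 0.095 (adjusted p = 0.395) and rho 0.163 (adjusted p = 0.164), and neither passed. Without CBA/J and BXH2/TyJ that r was 0.299. With C4b, the other substrate of C1s, both genes passed. C1s1 had r 0.382 and rho 0.354 (adjusted p = 0.00123 and 0.000461), and r 0.197 without CBA/J and BXH2/TyJ. C1ra had r 0.394 and rho 0.312 (adjusted p = 0.00205 and 0.00296), and r 0.286 without CBA/J and NZB/BlNJ. With C1qa, C1ra had r -0.058 and rho -0.220 (adjusted p = 0.612 and 0.0536). With the acute phase gene Hp it had r -0.101 and rho -0.131 (adjusted p = 0.401 and 0.272).

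The genes most like each member over 56 BXD strains are given by Spearman's rho of log2 CPM, as a description in which the points share depth and library preparation. For C1rb these were Gapdh (-0.805), the glycolytic enzyme, which lies 0.591 Mb away, C1s2 (0.801), Gm18840 (0.793), Gm12070 (-0.784) and Pianp (0.709). For C1s2 they were Gm12070 (-0.834), C1rb (0.801), Gm13394 (0.796), Gm18840 (0.785) and Pianp (0.740). Gm12070 and Gm13394 are processed pseudogenes on other chromosomes, and 96.8% of the words of each also occur in Gapdh. For C1s1 they were Mug2 (0.648), A2ml1 (0.644), Gpr19 (0.642), Gm18840 (-0.609) and Gm13394 (-0.607), the first 4 of them on chromosome 6. Pooled over both sides of the gap, C1s1 was ranked opposite to C1rb (-0.572) and C1s2 (-0.515). In the 27 BXD strains above the gap, rho of C1s1 was 0.397 with C1rb and 0.679 with C1s2. In the 29 below it, these were -0.114 and -0.070. Every rho in this paragraph that involves C1rb or C1s2 over the 56 strains pools both sides in the same way. For C1ra they were Mif (-0.803), Gcgr (0.791), the glucagon receptor, Pgk1 (-0.789), Znrd1as (0.776) and Ldah (0.775), none of them on chromosome 6. Over the BXD strains without BXD19/TyJ the pooled rho with C1rb was -0.802 for Gapdh and 0.790 for C1s2.

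Most of the high values for C1rb lay on chromosome 6. The counts leave out the 4 members, of which C1s2 (0.801) and C1s1 (-0.572) lie within 1 Mb. An absolute rho of 0.5 or more with C1rb was reached by 4 of 50 genes within 1 Mb, 6 of 84 at 1 to 5 Mb, 4 of 154 at 5 to 20 Mb, 0 of 504 farther along chromosome 6, and 4 of 14884 on other chromosomes. Without BXD19/TyJ these counts were 5, 6, 3, 0 and 5. Within 500 kb of the 4 genes, 69 genes were annotated, 44 were in the table and 36 passed the filter on low counts. Most neighbours did not share the pattern. The rho with C1rb was 0.187 for Clstn3, -0.087 for Lpcat3, 0.117 for Ptpn6 and 0.050 for Emg1.

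**Figure D5:**
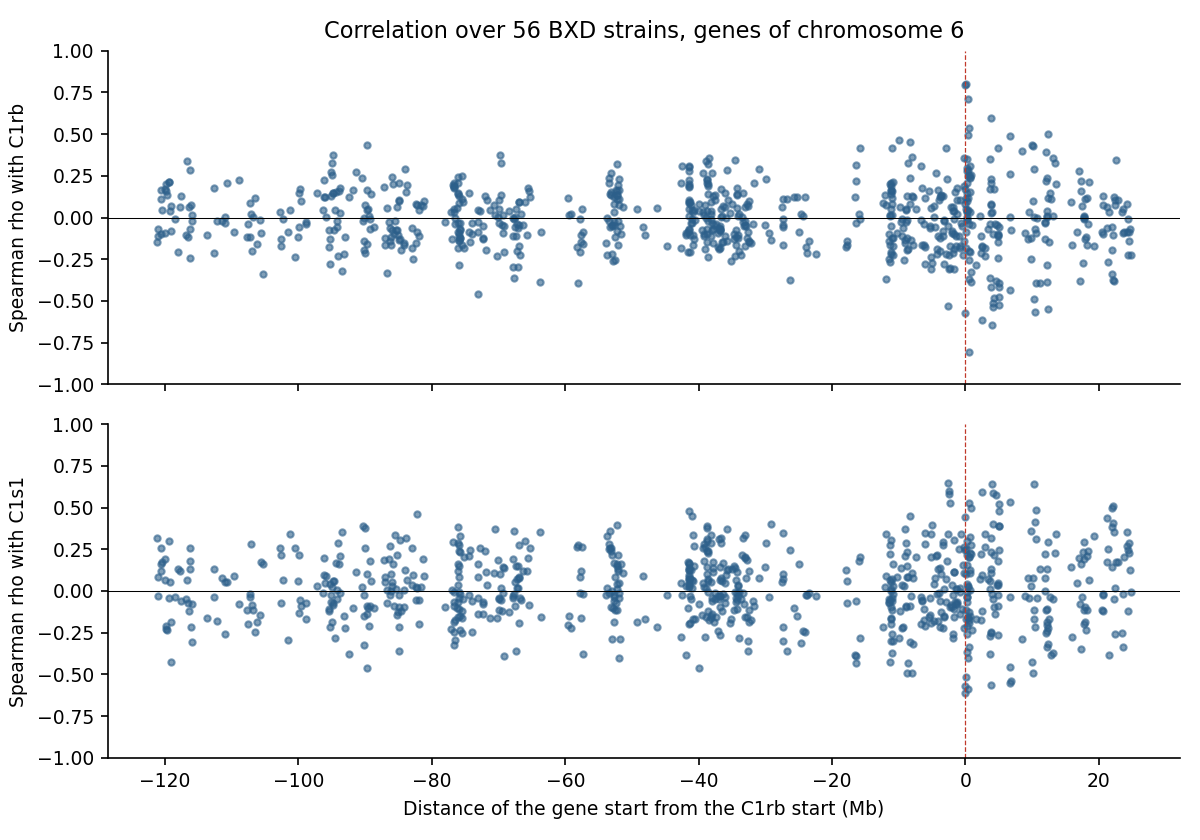
Spearman's rho of log2 CPM over 56 BXD strains between each gene of chromosome 6 and C1rb (upper) or C1s1 (lower), against the distance of its start from the C1rb start in Mb (dashed line at 0). For C1rb the points beyond 0.5 in either direction lie within 20 Mb of the line, from Gapdh at -0.805 to C1s2 at 0.801.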

How the data were processed

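Stranded mRNA libraries of liver were made from 15 mice of the diet study and 115 of the panel, per the labels' protocols. The submitters' processing notes name kallisto 0.46 and mm10; how transcripts were summed to genes, and the strand setting, are not given in the sources used here. The authors deposited estimated counts (26.5% and 27.4% of values not whole), which were rounded here, and TPM, which was used for levels between genes. Groups came from the labels. Diet contrasts were fitted in edgeR 4.0.16 (R 4.3.3) with all 5 groups, TMM factors, filterByExpr and quasi-likelihood tests, calling an adjusted p under 0.05 (Benjamini-Hochberg over all genes); the family contrast was fitted likewise on BXD and AXB/BXA. Log2 CPM used a prior count of 2. DESeq2 1.42.0 and limma 3.58.1 were alternatives. Of the identifiers, 34845 of 35274 and 35612 of 35711 matched GENCODE M21, whose transcripts gave the sequences. The fits and the permutation p were tested on simulated data. Replicates are separate mice per the labels, and strains serve as replicates of a family, with substrains counted separately. The 2 mice of 129X1/SvJ were averaged. With 3 mice per diet the precision is set by their spread, and a 95% Wilson interval is given for shares in single libraries.

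The 4 genes and all gene lists were chosen with earlier results of these data known, and the gap rule and the alternatives without replicate 2 of the 500 ppm group and without BXD19/TyJ were chosen after seeing the data. Genes named besides the members are, for the complement lists, those called with the largest changes (up to 4 a list and direction) and the direct substrates and inhibitor of C1r and C1s, for each member the 5 genes with the largest absolute rho over BXD strains, and genes within 500 kb of the locus. The remaining marker lists are given here for 2% iron against chow, and their part in the C1s1 change was not tested. In that contrast 8 of 12 interferon, 7 of 15 acute phase, 4 of 5 erythroid and 1 of 6 endothelial genes rose. Of the genes tested, 0 of 4 neutrophil, 0 of 3 lymphocyte and 0 of 3 cholangiocyte genes were called. Falls were called for 1 erythroid, 1 hepatocyte and 1 pancreas gene. Over all genes tested 11.9% rose and 10.9% fell.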

Additional observations from a re-analysis of the deposited data

Results flagged for a closer look

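Among the 4 BXH strains, 2 values lay far from the other 3 strains for their range. For 1 gene with normally spread values, chance gives such a gap in about 1 in 20 groups. All 4 genes were looked at, so the rate over them together is higher. No other group of strains was of a size to which the comparison applies. C1s1 was lowest in BXH2/TyJ, at 7.78 on the log2 CPM scale (220 CPM), where the others had 493, 502.4 and 503 CPM. C1ra was also lowest in BXH2/TyJ (91.8 CPM against 318 to 445 CPM). C1s2 was lowest in BXH10/TyJ, at -2.63 log2 CPM (0 CPM), the 1 BXH strain on the lower side of the C1s2 gap, where the others had 14.6 to 33.04 CPM. This flag restates the division of the BXH strains into 1 below and 3 above the gap, so for C1s2 it is a description and no test.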

How the results depend on the processing

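The C1s1 call for 2% iron against chow kept its direction and its side of the threshold under every alternative run, and no other member was called under any. The numbers of strains above the C1rb and C1s2 gaps stayed at 62 on TPM and were 61 without BXD19/TyJ. Small values changed sign: C1rb gave 0.0083 for 2% iron against 50 ppm and 0.024 against chow by limma on log2(TPM + 1). For chow against 50 ppm, C1ra gave -0.0025 with at least 10 counts in every library, -0.0012 with only the 2 groups, and -0.0507 and -0.0511 by limma (pseudocounts 1 and 0.1), and C1rb gave -0.0101 by DESeq2 and -0.016 and -0.0301 by limma. With the counts of substrains summed, C1rb gave -0.0674 for BXD against AXB/BXA. On log2(TPM + 1), r of C1rb and C1s1 above the gap was -0.633, on the other side of the threshold from -0.688 on log2 CPM; on log2 CPM rho was 0.387, and r was 0.432 without CBA/J and BXH2/TyJ, so the sign of r rests on those strains. The cause was not tested.

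Leaving out 1 mouse at a time, C1ra ran from -0.0541 to 0.142 (2% iron against 50 ppm), -0.0614 to 0.133 (chow against 50 ppm) and -0.023 to 0.0295 (2% iron against chow), and C1rb from -0.762 to 0.673, -0.612 to 0.716, -0.802 to 0.608, and -0.336 to 0.864 for cellulose against 2% iron. C1s1 against 50 ppm stayed at 0.20 to 0.28. Over all genes, calls for 2% iron against 50 ppm, 2127 in all, were 1208 and 1161 by limma (pseudocounts 1 and 0.1) and 1003 to 2333 leaving out 1 mouse; for 2% iron against chow, 3087, they were 1945 and 1987 by limma; for 500 ppm against 50 ppm, 0, they were 2 by DESeq2. For chow against 50 ppm, 53, they were 147 by DESeq2, 21 and 14 by limma, 26 with only the 2 groups and 4 to 63 leaving out 1 mouse. For cellulose against 2% iron, 11, they were 51 with no filter, 26 with at least 10 counts, 224 by DESeq2, 18 and 18 by limma, 23 with only the 2 groups and 0 to 212 leaving out 1 mouse, 53 of them without replicate 2 of the 500 ppm group. For BXD against AXB/BXA, 1606, they were 906 and 917 by limma. No paired analysis was possible because the labels give no replicate numbers. Depth limits C1rb and C1s2 below the gap, where counts of 0 to 27.6 leave their order unresolved.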
